A study of Homo sapiens with 24 samples.

Results

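The 2′,5′-oligoadenylate synthetase (OAS) family in this study is 4 genes, OAS1, OAS2, OAS3 and OASL, taken as the rows of the count table that carry these names. They are 4 of the 60623 genes in the table, and all 4 were among the 14059 genes with enough counts to be tested. OAS1, OAS2 and OAS3 are enzymes that bind double-stranded RNA and then join ATP into short 2′,5′-linked chains of adenylate (2-5A), a second messenger of the antiviral response. OASL keeps the fold of the family without the enzyme activity, carries ubiquitin-like domains and acts on the RNA sensor RIG-I. All are textbook targets of interferons, through the transcription factor ISGF3.

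The cells were HT-29, an epithelial line from a human colon cancer, either wild type (WT) or knocked out (KO) for GPRC5A, a membrane protein of the class C receptors. Both genotypes were treated over 8 h with 0.1% DMSO, with 7-fluorotryptamine (7FTA, tryptamine bearing 1 fluorine) at 50 µM, with 10 ng/mL of the cytokine TNFα, or with TNFα and 7FTA. That makes 8 groups of 3 libraries, 24 in all, of poly(A)-selected RNA. The labels do not name the KO clones, do not say whether the groups without the DMSO label held DMSO, and do not say whether the 3 libraries of a group were cultured apart, so each p reflects spread among libraries that may be technical.

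GPRC5A was at 202 to 249 CPM (the count of a gene on a library size made equal for all libraries) in WT libraries and at 64.7 to 80.6 CPM in KO libraries, a log2 difference with DMSO of -1.57 ± 0.04 (SE, n = 3 libraries a group), so RNA of the gene remained in KO cells. Total counts ran from 16782857 to 27247407 a library. Markers of colonic epithelium were detected for 10 of 10 genes and summed to 15192 to 20641 CPM, most of it from the keratins KRT8 and KRT18. Of these markers CDX1 (0.105 to 1.01 CPM), CDX2 (0.621 to 3.44 CPM) and CEACAM5 (2.16 to 28.6 CPM) were low. Of 10 markers of leukocytes, CD2 and CLEC4C had 0 counts in all libraries and PTPRC, which encodes CD45, was at most at 0.174 CPM. The running numbers in the titles go group by group and put all libraries without TNFα before those with it. The labels do not say what these numbers mark. If they mark an order of handling, a difference between groups, with TNFα or otherwise, and one of order cannot be told apart.

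OAS1 (ENSG00000089127), OAS3 (ENSG00000111331) and OAS2 (ENSG00000111335) lie side by side on the plus strand of chromosome 12, at 112906777 to 112933222, 112938352 to 112973249 and 112978395 to 113011723 (GENCODE 29 on GRCh38). The cluster spans 104947 bases, with 5129 bases between OAS1 and OAS3 and 5145 bases between OAS3 and OAS2. OASL (ENSG00000135114) lies 8007387 bases further along the chromosome, at 121019111 to 121039242 on the minus strand. None of the 5245 stretches of 100 bases in the transcripts of OAS1 occurred in the transcript of another gene, and the same held for the 6554 of OAS2, the 8310 of OAS3 and the 3709 of OASL, so reads as long as those sequenced could be told apart between members. An antisense gene, AC004551.1, runs across the cluster and shares 92 exonic bases with OAS1 and 0 with OAS2 and OAS3. The strand setting of the counting is not given in the sources used here. AC004551.1 had 0 to 2 counts a library.

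The promoter stretches below are shown because the members moved together. They hold letters known as interferon and NF-kB response motifs, the binding sequences of ISGF3 or IRF factors and of NF-kB. They are RefSeq sequences (GRCh38.p14, plus strand), with positions counted back from the RefSeq start of the gene, which lies inside the longer gene model of GENCODE 29. Capitals mark GAAACGAAAC, the core of the interferon-stimulated response element (ISRE: GAAA, any 2 bases and GAAA again) and the NF-kB consensus.
OAS1, chr12:112906932-112906961, positions -30 to -1: cctcccttctgagGAAACGAAACcaacagc
OAS3, chr12:112938325-112938354, positions -149 to -120: aGAAACGAAACTGAAAgcaGGGAATTTCCc
OAS3, chr12:112938444-112938473, positions -30 to -1: gttcggagagccgggcggGAAAACGAAAcc
OAS1 held GAAACGAAAC at positions -17 to -8, where the GAAA runs stand 1 base apart and not 2 as in the ISRE core. OAS3 held the ISRE core at positions -143 to -134 and -12 to -3, the former overlapping a GAAACGAAAC, and the NF-kB consensus at -130 to -121. In the 250 bases before the start, both strands searched, the ISRE core occurred in 1061 of 35116 promoters (3.02%), the NF-kB consensus in 2417 (6.88%) and GAAACGAAAC in 17 (0.0484%). GAAACGAAAC was searched after the letters of these promoters had been seen. OAS1 also held TTCNNNGAA, the letters of the gamma-activated site, at -168 to -160, a motif that 2306 promoters (6.57%) held. These matches describe letters and no binding was measured.

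OAS3, the member that binds long double-stranded RNA, had the highest level of the family per kilobase of exon in every group. Its level per kilobase of exon was 7.85 ± 0.645 CPM (SD, n = 3) in WT cells with DMSO, against 4.38 ± 0.121 for OAS1, 3.21 ± 0.269 for OASL and 0.801 ± 0.0520 for OAS2. The length used was all annotated exons of a gene joined, 4947 bases for OAS1 and 8251 for OAS3. The lengths of the transcripts present were not measured, and the order per kilobase rests on the lengths used. In KO cells with DMSO, OAS3 and OAS1 were at 11.2 and 9.47 CPM per kilobase. Reads of OAS3 made up 869 to 10086 counts a library, those of OAS2 47 to 1751. OAS2 had the fewest counts in WT cells and in KO cells without TNFα, so it carried the largest counting error there. In KO cells with TNFα OASL had the fewest, 2759 summed over 3 libraries against 4999 for OAS2. With both agents these sums were 2632 and 2775. From the lowest to the highest of the 8 group means, OAS2 spanned 29.3-fold, OAS3 7.94-fold, OAS1 7.44-fold and OASL 4.99-fold.

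**Figure D1:**
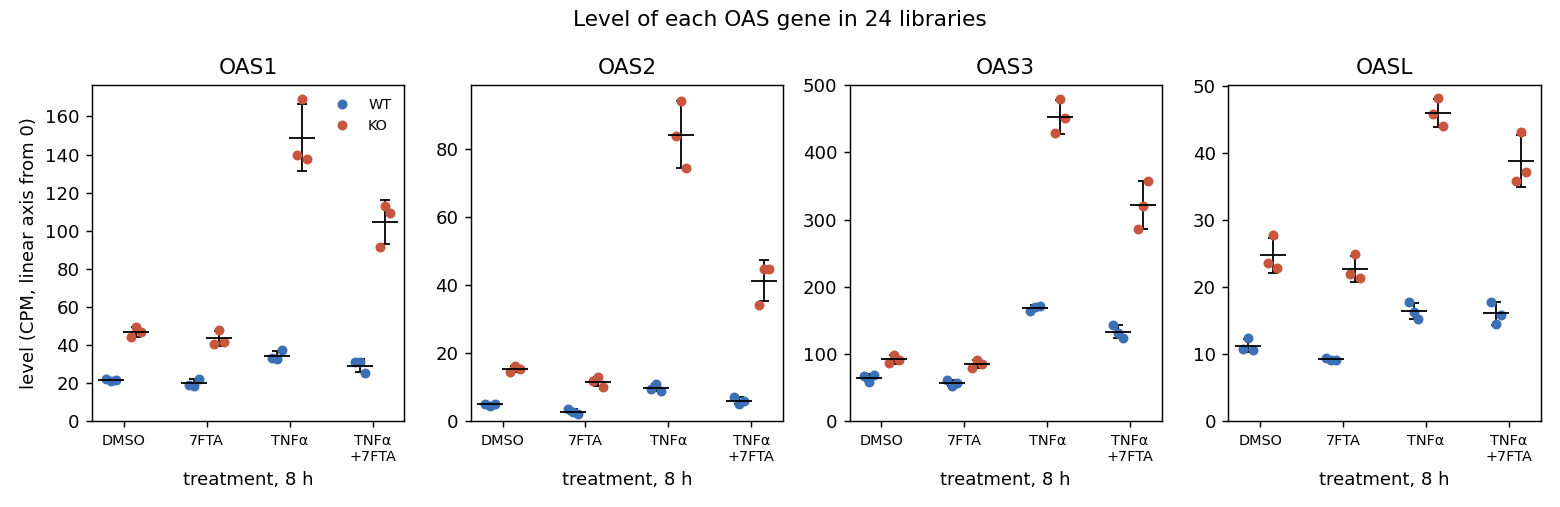
Level of OAS1, OAS2, OAS3 and OASL in CPM on a linear axis from 0, by treatment for 8 h. Points are libraries (WT blue, KO red) and lines are the mean and SD of 3 libraries. KO libraries with TNFα stand highest in each panel, and those with TNFα and 7FTA stand next.

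For each member the lowest group was WT with 7FTA and the highest was KO with TNFα. OAS1, OAS2 and OASL had every KO group mean above every WT group mean, although for OAS2 the libraries of WT with TNFα (8.98 to 11.0 CPM) and of KO with 7FTA (10.2 to 12.9 CPM) overlapped. OAS3 had another order, in which WT cells with TNFα (169 ± 3.83 CPM) and with TNFα and 7FTA (133 ± 9.84 CPM) stood above KO cells with DMSO (92.3 ± 6.35 CPM). Neighbours in the order whose libraries overlapped were the DMSO and 7FTA groups of KO cells for OAS1, OAS3 and OASL, those of WT cells for OAS1 and OAS3, the TNFα groups with and without 7FTA of WT cells for OASL, and WT with DMSO against WT with TNFα and 7FTA for OAS2.

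The make-up of the family was compared as each member's part of the summed level. Summed per kilobase, the family stood at 16.3 CPM in WT and 30.2 CPM in KO cells with DMSO, and at 33.7 CPM and 112 CPM with TNFα. OAS3 took 48.3% ± 2.48 (SD, n = 3) of that sum in WT cells with DMSO and 60.7% ± 0.671 with TNFα. In KO cells its share was 37.1% ± 0.476 with DMSO and 49.3% ± 1.63 with TNFα. The 3 libraries of each TNFα group lay above the 3 of the matching DMSO group, from 60.0% against at most 50.3% in WT cells and from 48.0% against at most 37.6% in KO cells. OASL took 23.4% ± 1.19 in KO cells with DMSO and 11.8% ± 0.447 with TNFα. OAS2 took 8.13% ± 0.120 there with DMSO and 12.0% ± 0.792 with TNFα. In WT cells the share of OAS2 was 4.92% ± 0.166 and 4.65% ± 0.523, with overlapping libraries. These shares rest on the exon lengths used and were not tested.

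**Figure D2:**
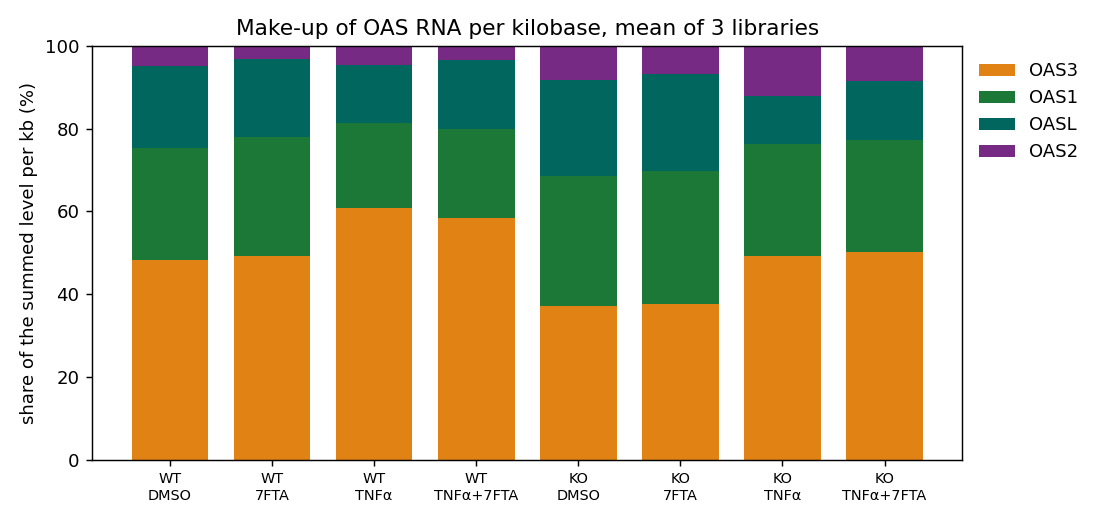
Share of each member in the summed level per kilobase (%), as the mean of 3 libraries in each of the 8 groups. OAS3 is the largest part in every bar, and its part is larger with TNFα than without in both genotypes, 60.7% against 48.3% in WT and 49.3% against 37.1% in KO cells.

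KO cells were compared with WT cells under each treatment. As the KO clones are not named, loss of GPRC5A and other differences between KO and WT cells cannot be told apart. All 4 members were higher in KO cells with DMSO. OAS1 was at 22.3, 21.1 and 21.6 CPM in WT libraries and at 44.1, 49.4 and 47.0 CPM in KO libraries. Each KO library was above each WT library, and the log2 difference was 1.11 ± 0.11 (SE, adjusted p = 1.96e-07 by edgeR's quasi-likelihood test with Benjamini-Hochberg adjustment, as for all adjusted p-values here). OAS2 was at 5.18, 4.64 and 5.23 CPM in WT and at 14.5, 16.3 and 15.3 CPM in KO libraries. With groups well apart, it had the largest difference of the family, 1.60 ± 0.16 (adjusted p = 1.75e-08), or 3.04-fold.

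OAS3 was at 66.9, 58.8 and 68.8 CPM in WT libraries with DMSO and at 86.2, 98.8 and 91.9 CPM in KO libraries. The groups did not overlap, and its difference was the smallest, 0.51 ± 0.09 (adjusted p = 0.000195). OASL was at 10.8, 12.4 and 10.7 CPM in WT and at 23.7, 27.8 and 22.9 CPM in KO libraries, again without overlap, a difference of 1.14 ± 0.09 (adjusted p = 5.41e-15). So 4 of 4 members were called higher, with a median of 1.12, where 24.0% of all tested genes were called higher and the median of all genes was 0.0064. The KO and WT libraries did not overlap for 4 of 4 members, against 27.3% of all genes with all KO libraries higher. In such bulk RNA, a change in the number of cells that express a gene and one in RNA per cell cannot be told apart.

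With 7FTA alone the genotypes differed by 1.12 for OAS1, 2.01 for OAS2, 0.58 for OAS3 and 1.30 for OASL on the log2 scale. These 4 of 4 were called higher in KO cells, against 24.6% of all genes. With TNFα the differences were 2.11 ± 0.10, 3.09 ± 0.12, 1.42 ± 0.08 and 1.48 ± 0.08 in the same order, and 4 of 4 members were called higher against 25.5% of all genes. The largest was OAS2, at 84.0 ± 9.85 CPM in KO and 9.82 ± 1.05 CPM in WT cells. With TNFα and 7FTA, 4 of 4 members were called higher in KO cells, against 25.8% of all genes, by 1.84, 2.78, 1.27 and 1.28. In each of these comparisons every KO library was above every WT library for each member, where 28.9%, 28.3% and 27.9% of all genes had all KO libraries higher.

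**Figure D3:**
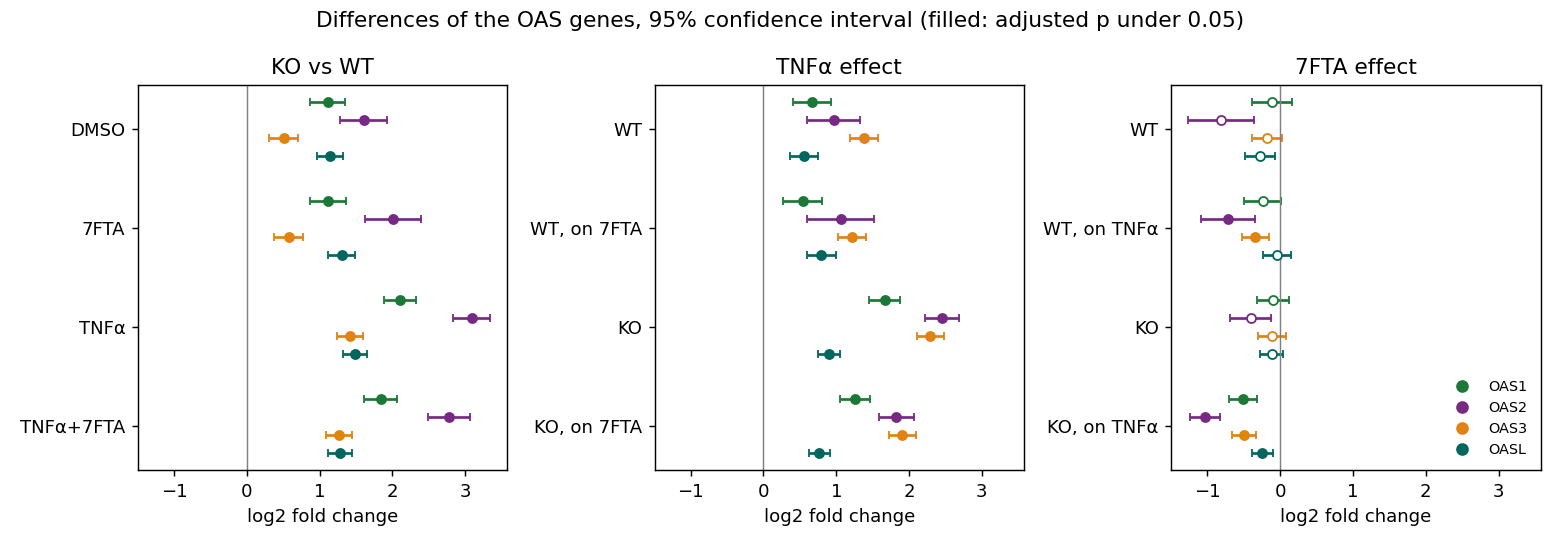
Log2 fold change of the 4 members in the 12 comparisons between groups, with the 95% confidence interval, filled where the adjusted p was under 0.05. The panels hold KO against WT by treatment, TNFα against its control, and 7FTA against its control. All points of the KO and TNFα panels are filled and above 0, and 6 of the 16 points of the 7FTA panel are filled and below 0.

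TNFα raised all 4 members in both genotypes. In WT cells OAS3 rose the most. Its libraries were at 66.9, 58.8 and 68.8 CPM with DMSO and at 165, 170.1 and 172 CPM with TNFα, a change of 1.38 ± 0.09 (adjusted p = 8.32e-10). OAS2 rose from the values given above to 9.48, 11.0 and 8.98 CPM, by 0.96 ± 0.17 (adjusted p = 0.000121). OAS1 reached 33.3, 32.7 and 37.6 CPM, a rise of 0.67 ± 0.12 (adjusted p = 0.000227), and OASL reached 17.8, 16.4 and 15.3 CPM, a rise of 0.55 ± 0.10 (adjusted p = 6.20e-06). For each of them all libraries with TNFα were above all with DMSO. Thus 4 of 4 were called higher, against 19.5% of all genes, and 24.0% of all genes had all TNFα libraries higher.

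In KO cells all 4 rose as well. OAS2 went from 14.5, 16.3 and 15.3 CPM with DMSO to 83.7, 94.1 and 74.4 CPM with TNFα, which is 2.45 ± 0.11 (adjusted p = 6.57e-14) or 5.46-fold. OAS3 went from 86.2, 98.8 and 91.9 CPM to 429, 479 and 451 CPM, 2.29 ± 0.09 (adjusted p = 3.14e-13). The groups of both genes stood far apart. OAS1 reached 139.7, 169 and 138 CPM from 44.1, 49.4 and 47.0 CPM, 1.66 ± 0.10 (adjusted p = 1.35e-10). OASL, the member without enzyme activity, rose least, from 23.7, 27.8 and 22.9 CPM to 45.9, 48.2 and 44.1 CPM, 0.89 ± 0.07 (adjusted p = 1.34e-13). No library with TNFα overlapped one with DMSO, as for 20.5% of all genes in this direction. These 4 of 4 called higher stand against 16.1% of all genes.

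The summed leukocyte markers differed with TNFα too, from 7.81 to 8.88 CPM with DMSO to 11.8 to 12.5 CPM in WT cells and from 5.16 to 5.35 CPM to 10.3 to 12.8 CPM in KO cells. Nearly all of that sum was CD14 (1.94 to 8.49 CPM over all libraries) and ITGAM (0.0519 to 10.3 CPM), while 8 of the 10 markers never passed 0.174 CPM. The part of these markers in the OAS result was not tested. Epithelial markers summed to 18057 to 18348 CPM with DMSO and 18275 to 19503 CPM with TNFα in WT cells. In KO cells they summed to 15654 to 16120 CPM with DMSO and 15192 to 15824 CPM with TNFα, below all WT libraries in each case. That sum was mostly KRT8 and KRT18, and the markers taken singly went both ways. With DMSO, 5 of the 10 were up and 3 were down in the knockout by the edgeR calls (median log2 difference 0.22). With TNFα the tally was again 5 up and 3 down (median 0.039). The part of the epithelial markers in the differences between genotypes was not tested.

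With 7FTA present in both arms, TNFα still raised 4 of 4 members in WT cells, against 17.7% of all genes, and 4 of 4 in KO cells, against 16.2%. The rises in WT cells were 0.54 for OAS1, 1.06 for OAS2, 1.22 for OAS3 and 0.79 for OASL. In KO cells they were 1.26, 1.83, 1.91 and 0.77.

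The difference between the genotypes' TNFα responses was tested as an interaction. It was 1.00 ± 0.16 for OAS1 (adjusted p = 0.000717), 1.48 ± 0.21 for OAS2 (adjusted p = 0.000118) and 0.92 ± 0.12 for OAS3 (adjusted p = 0.000174), so the 3 enzymes rose more in KO cells. OASL missed the threshold at 0.34 ± 0.12 (adjusted p = 0.120, 95% interval 0.097 to 0.59), and its adjusted p ran from 0.0394 to 0.306 over the alternatives. It was called without KO replicate 2 with DMSO, at 0.43. That is 3 of 4 members called higher, against 2.05% of all genes. With 7FTA in all groups, 2 of 4 members were called higher, against 1.58% of all genes. These were OAS1 at 0.72 ± 0.16 (adjusted p = 0.0198) and OAS3 at 0.69 ± 0.13 (adjusted p = 0.00534). OAS2 was at 0.77 ± 0.26 (adjusted p = 0.146) and OASL at -0.024 ± 0.12 (95% interval -0.27 to 0.22). The call of OAS1 there was lost without WT replicate 3 with 7FTA (0.62), KO replicate 1 with 7FTA (0.67) or KO replicate 3 with both agents (0.69), and OAS2 was called without KO replicate 1 with both agents (0.89).

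**Figure D4:**
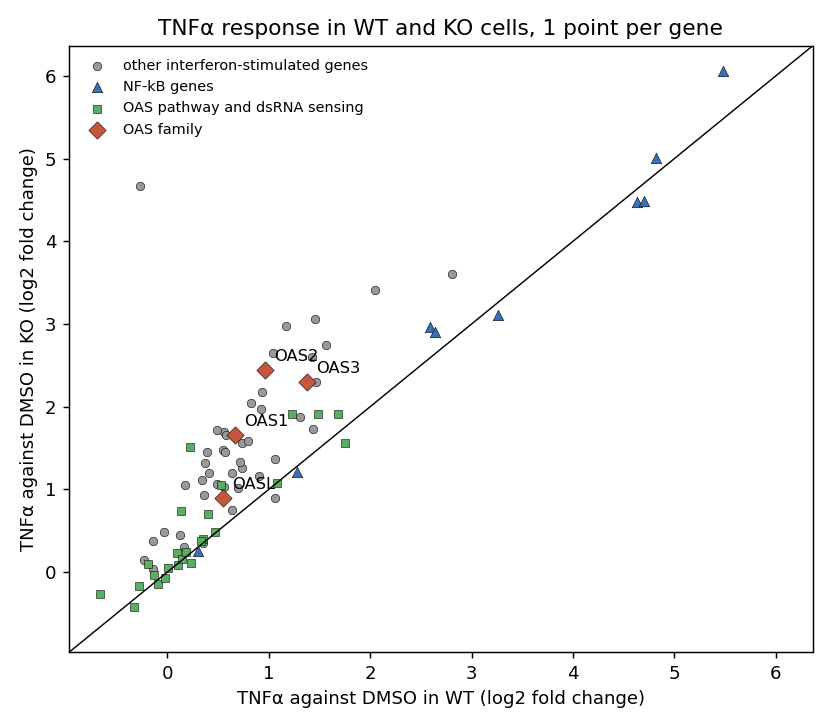
Log2 fold change with TNFα in WT cells (x axis) and in KO cells (y axis), 1 point per gene, for the OAS family (diamonds), other interferon-stimulated genes (circles), genes of the OAS pathway and double-stranded RNA sensing (squares) and NF-kB genes (triangles). The line marks equal responses. The 4 OAS genes and 43 of 44 other interferon-stimulated genes lie above it. So do 19 of 25 pathway and sensing genes and 4 of 9 NF-kB genes. The share of all genes above the line was not counted.

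With 7FTA alone no member passed the edgeR test. In WT cells OAS2 was at 3.53, 2.81 and 2.28 CPM with 7FTA, all below the DMSO libraries, a difference of -0.81 ± 0.22 that missed the threshold (adjusted p = 0.0590). OASL was at 9.50, 9.10 and 9.10 CPM, also below all DMSO libraries, with a difference of -0.28 ± 0.10 (adjusted p = 0.180). OAS1 and OAS3 differed by -0.11 ± 0.13 (95% interval -0.38 to 0.16) and -0.18 ± 0.10 (-0.39 to 0.021), and their libraries overlapped those with DMSO. With edgeR 0 of 4 members were called, against 0.605% of all genes called lower. At an unadjusted p under 0.05 they were 2, OAS2 and OASL, and DESeq2 called 1, OAS2. The adjusted p of OAS2 ran from 1.05e-06 to 0.262 over the alternatives. Without WT replicate 1 with 7FTA, edgeR called it at -1.01. Libraries with 7FTA all below those with DMSO were seen for 2 of 4 members and for 8.25% of all genes.

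In KO cells 7FTA alone gave -0.41 ± 0.13 for OAS2 (11.7, 12.9 and 10.2 CPM, all below the DMSO libraries, adjusted p = 0.136). OAS1, OAS3 and OASL, at -0.10, -0.11 and -0.12, overlapped with DMSO. EdgeR called 0 of 4, against 0.932% of all genes called lower. OAS2 was the 1 member with an unadjusted p under 0.05, and DESeq2 called 0. For 8.78% of all genes the 7FTA libraries were all lower.

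On top of TNFα, 7FTA lowered all 4 members in KO cells. OAS2 fell from 83.7, 94.1 and 74.4 CPM with TNFα to 34.3, 44.6 and 44.8 CPM with both, 2.04-fold, or -1.03 ± 0.10 on the log2 scale (adjusted p = 2.48e-07). OAS3 fell to 286, 320.1 and 357 CPM, by -0.50 ± 0.08 (adjusted p = 0.000537), and OAS1 to 91.6, 113 and 109 CPM, by -0.51 ± 0.09 (adjusted p = 0.00152). OASL fell to 35.9, 43.2 and 37.3 CPM, by -0.24 ± 0.07 (adjusted p = 0.0222). For each member all libraries with both agents lay below all with TNFα alone, although OASL came near, with 43.2 CPM under 44.1 CPM. These 4 of 4 called lower stand against 3.53% of all genes, and all libraries were lower for 10.7% of all genes. The call of OASL was lost without KO replicate 1 or 2 with TNFα, or KO replicate 1 or 3 with both agents, at -0.25, -0.21, -0.19 and -0.22. All libraries with both agents were above all those of KO cells with DMSO for each of the 4 members. The share of all genes with that order was not counted.

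In WT cells 7FTA on top of TNFα lowered OAS2 from 9.48, 11.0 and 8.98 CPM to 7.08, 5.17 and 5.93 CPM, by -0.72 ± 0.18 (adjusted p = 0.0181). OAS3 fell from 165, 170.1 and 172 CPM to 144, 131 and 125 CPM, by -0.34 ± 0.09 (adjusted p = 0.0263). Both were apart in all libraries, and 2 of 4 members were called lower, against 2.55% of all genes. OAS1, at 31.3, 31.0 and 25.5 CPM, was also below all libraries with TNFα alone but was not called (-0.24 ± 0.12, adjusted p = 0.342), so 3 of 4 did not overlap, against 10.4% of all genes. OASL, at 17.8, 14.5 and 15.9 CPM, overlapped (-0.041 ± 0.09, 95% interval -0.23 to 0.15). Both WT calls were lost when some single libraries were left out. That of OAS2 was lost without WT replicate 2 with TNFα (-0.62) or WT replicate 2 (-0.60) or 3 (-0.71) with both agents. That of OAS3 was lost without any 1 of the 3 libraries with TNFα (-0.36, -0.34 and -0.33) or without replicate 2 (-0.33) or 3 (-0.30) with both agents.

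Whether the 7FTA response differed between genotypes or with TNFα was tested directly. The genotypes' 7FTA responses differed by 0.0082 to 0.40 without TNFα and by -0.31 to -0.15 with it, and edgeR called 0 of 4 members in each case. At an unadjusted p under 0.05 the count was 0 in both, and DESeq2 called 0. Of all genes, 0 and 9 (0.0640%) were called. The 7FTA responses with and without TNFα in WT cells differed by -0.16 to 0.24, again with 0 of 4 called, 0 at an unadjusted p under 0.05 and 0 by DESeq2, against 0.277% of all genes. In KO cells the 7FTA difference with TNFα less that without it was -0.40 ± 0.14 for OAS1, -0.62 ± 0.17 for OAS2, -0.39 ± 0.12 for OAS3 and -0.13 ± 0.11 for OASL. EdgeR called 0 of 4 (adjusted p = 0.311, 0.115, 0.231 and 0.752), against 0.455% of all genes called lower, and DESeq2 called 0. OAS1, OAS2 and OAS3 were the 3 with an unadjusted p under 0.05. Without KO replicate 3 with TNFα, OAS2 was called at -0.70.

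Across the 24 libraries the log2 levels of OAS1 and OAS2 had a Pearson correlation of 0.982, OAS2 and OASL 0.972 and OAS1 and OASL 0.970. OAS3 was less like the others, with 0.894 to OAS1, 0.888 to OAS2 and 0.842 to OASL. The libraries share the 8 group means, which set most of these values. After each library's group mean was removed, the correlations fell to between 0.205 (OAS1 and OAS2) and 0.650 (OAS1 and OAS3).

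Among 11131 other genes with a mean log2 CPM of at least 1, those whose pattern over the 24 libraries was most like OAS1 were MX1 (r = 0.985), PARP9 (0.983) and DDX60 (0.977). For OAS2 they were MX1 (0.993), DDX60 (0.991) and IFI44 (0.980), and for OAS3 they were DTX3L (0.993), SAMD9 (0.987) and DDX58 (0.987). MX1 encodes an antiviral GTPase and DDX58 the RNA sensor RIG-I. OASL had SERPINB1 (0.977), ISG20 (0.974) and CLDN12 (0.973), of which ISG20 is an exonuclease induced by interferon and CLDN12 a claudin. These values are a description over libraries that share groups.

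Among genes of the OAS pathway, AKAP7, an anchoring protein with a domain that can cut 2-5A, was at 23.7 CPM in KO and 4.96 CPM in WT cells with DMSO (2.24 ± 0.10, adjusted p = 7.52e-24). With TNFα its difference was 0.012 in WT and 0.057 in KO cells, neither called. ABCE1, a protein that recycles ribosomes, was lower in KO cells with DMSO by -0.16 ± 0.03 (adjusted p = 6.92e-05). PDE12, which degrades 2-5A, differed by -0.041 between genotypes with DMSO and was not called. With TNFα in KO cells PDE12 was lower by -0.15 ± 0.06 (adjusted p = 0.045), a call lost in at least 1 alternative.

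The wider list of 25 OAS pathway and double-stranded RNA sensing genes, all tested, had 14 higher and 3 lower in KO cells with DMSO (median 0.18, against 0.0064 over all genes), where 24.0% of all genes were called higher and 24.1% lower. With TNFα 15 were higher and 3 lower (median 0.18), against 25.5% and 25.1% of all genes. The sensors IFIH1 (MDA5) and DHX58 (LGP2) were higher in KO cells with DMSO by 0.94 and 1.19, while IRF3 and TMEM173, which encodes STING, were lower by -0.40 and -0.47. TNFα raised 14 and lowered 3 in WT cells (median 0.19), against 19.5% and 18.9% of all genes. It raised 15 and lowered 2 in KO cells (median 0.24), against 16.1% and 14.8%. IFIH1 rose by 1.91 and DDX58 by 1.91 in KO cells. The interaction of genotype and TNFα was called higher for 6 and lower for 0 of the 25, against 2.05% of all genes called higher. The 6 were TLR3 (1.30), DDX58 (0.67), EIF2AK2 (0.61), IFIH1 (0.42), ADAR (0.30) and CNP (0.29). CNP differed with TNFα by -0.19 in WT and 0.10 in KO cells, in opposite directions. With 7FTA in all groups the interaction was called higher for 5, against 1.58%. EIF2AK2 encodes PKR, a kinase that double-stranded RNA turns on. On top of TNFα, 7FTA lowered 10 of the 25 in KO cells, against 3.53% of all genes, and 5 in WT cells, against 2.55%, and raised 0 in either.

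Counts of the interferon genes themselves were low. IFNA2, IFNK, IFNW1 and IFNG had 0 counts in every library, and summed over the listed interferon genes other than IFNE the counts of 3 libraries were 5 in WT and 19 in KO cells with DMSO, and 11 and 34 with TNFα. IFNB1 had 2 counts in WT and 6 in KO cells with TNFα. IFNL1 had 5 and 10 there, IFNL2 had 4 and 6, and IFNL3 had 0 and 11. IFNL2 and IFNL3 may share reads as near-identical copies. The total counts behind these sums were 54145675 and 59464035. These genes did not pass the filter and were not tested. IFNE did, and its counts went the other way between genotypes, with sums of 43 in WT and 22 in KO cells with DMSO and of 32 and 28 with TNFα. The log2 difference of IFNE between KO and WT was -0.79 ± 0.44 with DMSO (adjusted p = 0.139, 95% interval -1.68 to 0.0998) and -0.42 ± 0.45 with TNFα (adjusted p = 0.452), neither called. Summed with IFNE, the interferon genes had 48 counts in WT and 41 in KO cells with DMSO, and 43 and 62 with TNFα.

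Of the 20 tested genes for interferon receptors and signalling, 7 were higher and 2 lower in KO cells with DMSO (median 0.18), against 24.0% and 24.1% of all genes. With TNFα 11 were higher and 2 lower (median 0.42), against 25.5% and 25.1%. STAT2 and USP18, a protease that restrains interferon signalling, were higher with DMSO by 1.01 and 1.32. TNFα raised 15 and lowered 1 in WT cells, against 19.5% and 18.9% of all genes, and raised 17 and lowered 0 in KO cells, against 16.1% and 14.8%. IRF1, a factor that both TNFα and interferons induce, rose by 1.44 in WT and 1.55 in KO cells, with an interaction of 0.11 that was not called. The interaction of genotype and TNFα was called higher for 5 of the 20, against 2.05% of all genes. With 7FTA in all groups it was also called higher for 5, against 1.58%. Among those that rose more without 7FTA were IRF7, USP18, NMI and IFI35, by 0.49, 0.73, 0.41 and 0.74, and IFNGR2 rose less, by -0.30.

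The list of 44 other interferon-stimulated genes was taken for comparison. With DMSO 38 were higher and 1 (IFITM2) lower in KO cells (median 0.76), against 24.0% and 24.1% of all genes. With TNFα 42 were higher and 0 lower (median 1.51), against 25.5% and 25.1%. TNFα raised 36 and lowered 2 in WT cells (median 0.64), against 19.5% and 18.9% of all genes, and raised 41 and lowered 0 in KO cells (median 1.41), against 16.1% and 14.8%. The interaction of genotype and TNFα was called higher for 33 and lower for 0 (median 0.78), against 2.05% of all genes called higher. With 7FTA in all groups it was called higher for 10 and lower for 0 (median 0.34), against 1.58%. On top of TNFα, 7FTA lowered 37 in KO cells (median -0.59), against 3.53% of all genes, and 16 in WT cells (median -0.23), against 2.55%, and raised 0 in either. IFI44L and MX1 with TNFα were 2.63 and 2.61 higher in KO than in WT cells.

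The 9 NF-kB genes, which TNFα induces directly, were taken as a check of the cytokine. TNFα raised 9 of 9 in both genotypes, with medians of 3.26 in WT and 3.10 in KO cells, against 19.5% and 16.1% of all genes. The interaction was called higher for 1 and lower for 0 (median -0.053), against 2.05% of all genes called higher. With 7FTA in all groups it was called higher for 3 and lower for 0 (median 0.24), against 1.58%. In KO cells 5 were lower and 0 higher with DMSO, against 24.1% and 24.0% of all genes, and 7 lower and 1 higher with TNFα, against 25.1% and 25.5%. CXCL8, a chemokine, was lower in KO cells by -1.05 with DMSO, and BIRC3, an inhibitor of cell death, was higher by 0.41 with TNFα. On top of TNFα, 7FTA lowered 8 of 9 in each genotype, against 2.55% of all genes in WT and 3.53% in KO cells, with medians of -0.22 and -0.23. For the 4 OAS genes the medians of that comparison were -0.29 and -0.50.

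Genes that neighbour the members were counted in the same comparisons. Of 10 tested genes within 500000 bases of the OAS1, OAS3 and OAS2 cluster, 4 were higher and 1 lower in KO cells with DMSO (median 0.11), against 24.0% and 24.1% of all genes. With TNFα 5 were higher and 1 lower (median 0.35), against 25.5% and 25.1%. TNFα raised 3 and lowered 0 of the 10 in KO cells (median 0.097), against 16.1% and 14.8%. Around OASL, 4 of 15 genes were higher and 4 lower in KO cells with DMSO (median 0.032), and TNFα raised 2 and lowered 2 in KO cells (median -0.032), to be read against the same shares of all genes.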

How the data were processed

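Per the labels, RNA of HT-29 cells was sequenced as 24 poly(A)-selected, single-end libraries, and the deposited table holds raw counts per gene. Of tools, the submitters' processing notes list the aligner STAR (2.6.1d), featureCounts (1.6.4) and DESeq2 (1.20.0), with build GRCh38 and no roles. The strand setting and annotation release are not given in the sources used here. Gene positions and exon lengths came from GENCODE 29 by gene identifier, and promoter sequences from RefSeq for the 2 members that had one (OAS1 and OAS3).

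Counts were fitted with edgeR 4.0.16 (R 4.3.3, TMM factors 0.944 to 1.05, quasi-likelihood with robust estimation, 1 mean per group, 24 libraries). Its default filter for low counts kept 14059 of 30061 genes with a count. There were 12 comparisons between groups and 6 interactions, each two-sided and called at a Benjamini-Hochberg adjusted p under 0.05 over all genes tested. The SE is the size of the log2 fold change over the root of F. Libraries of a group differed by more than counting noise (chi-square over degrees of freedom between 2.07 and 6.63 in 24 pairs). None was therefore taken as a copy of another, and each counted once. That does not show that they were cultured apart. The steps were tested on simulated data. Alternatives were DESeq2 1.42.0, other scaling, no filter, the replicate number as a block, only the compared groups, and each library left out.

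The members, gene lists and tests were chosen with earlier results of these data known. Named were the members, GPRC5A, the 3 called genes of each list with the largest rise and fall in KO against WT with DMSO or TNFα and in TNFα against DMSO in KO cells (not all are printed), and the 3 genes most like each member. Other genes and values given, among them the uncalled PDE12 difference between genotypes, the interaction genes and the interferon genes, were picked from the lists after their values were seen. No library was left out of the reported values. Results of some genes are not reported here.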

Additional observations from a re-analysis of the deposited data

Results flagged for a closer look

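The TNFα response differed between KO and WT cells by a test of the difference itself for 3 members. The log2 differences were 1.00 for OAS1, 1.48 for OAS2 and 0.92 for OAS3, each a larger rise in KO cells (edgeR adjusted p = 0.000717, 0.000118 and 0.000174). With 7FTA in both arms the responses still differed for OAS1 by 0.72 and for OAS3 by 0.69 (edgeR adjusted p = 0.0198 and 0.00534). Groups of 3 libraries were not searched for libraries that stand apart.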

How the results depend on the processing

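The 16 KO against WT values and the 16 TNFα values of the 4 members kept their direction and call in 176 of 176 alternative values each. Of the 7FTA values 153 of 176 did, and of the interactions 384 of 408. OAS2 with 7FTA alone in WT cells was called by DESeq2 (-0.81, adjusted p = 0.00104), with no filter (-0.81) and with only the compared groups (-0.81), which gives 1 member called in place of 0. In KO cells it was called with no filter (-0.39) and with only the compared groups (-0.41), again 1 in place of 0. With no filter the call of OAS3 for 7FTA on TNFα in WT cells was lost (-0.34, adjusted p = 0.0615), which leaves 1, OASL was called for the interaction of genotype and TNFα (0.36), OAS2 for the same under 7FTA (0.76, also by DESeq2 at 0.76) and OAS2 for the interaction of 7FTA and TNFα in KO cells (-0.63), 1 in place of 0. With only the compared groups OAS1 lost its call for 7FTA on TNFα in KO cells (-0.50, adjusted p = 0.0696) and for the interaction under 7FTA (0.72, adjusted p = 0.0516), which leaves 1. The causes were not tested.

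Over all genes, same-numbered libraries did not go together, with mean correlations of -0.0298 to 0.0650 over 28 pairs of groups. In 0 pairs of groups were all correlations over 0.1. An average over all genes cannot exclude pairing for the members. Replicate 2 was above its group mean for every member in every KO group. For OAS1 it stood off by 0.079 (DMSO), 0.148 (7FTA), 0.190 (TNFα) and 0.117 (both) on the log2 scale. In WT cells these values were -0.039, -0.097, -0.076 and 0.088. With the replicate block, OAS2 with 7FTA alone in WT cells was called (-0.81, adjusted p = 0.0245, 1 member in place of 0), OASL for genotype and TNFα (0.35, adjusted p = 0.0411) and OAS2 for 7FTA and TNFα in KO cells (-0.62, adjusted p = 0.0393, 1 in place of 0). The block changed no other call of a member.

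Over all genes, the count called moved by over 1.5 times for the genotypes' difference in 7FTA response, from 9 to 15 (DESeq2), 24 (no filter), 18 (replicate block) and 2 (only the compared groups) with TNFα and from 0 to 1 (no filter) without. It moved for 7FTA and TNFα in WT cells from 39 to 65 (no filter) and 62 (replicate block), in KO cells from 81 to 123 and 158, and for 7FTA on TNFα in KO cells from 1057 to 659 (only the compared groups).

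Leaving out 1 library at a time gave, for 7FTA on TNFα in WT cells, -0.84 to -0.60 for OAS2, -0.40 to -0.30 for OAS3 and -0.122 to 0.0338 for OASL, with 0 to 2 members called, and in KO cells -0.33 to -0.19 for OASL. It gave -1.01 to -0.65 for OAS2 with 7FTA alone in WT cells (0 to 1 called). For genotype and TNFα it gave 0.28 to 0.43 for OASL, and under 7FTA 0.62 to 0.81 for OAS1, 0.57 to 0.93 for OAS2 and -0.111 to 0.0634 for OASL (1 to 3 called). For genotype and 7FTA it gave -0.0707 to 0.0993 for OAS1, for 7FTA and TNFα in WT cells -0.0708 to 0.293 for OAS2, and in KO cells -0.71 to -0.50 for OAS2 (0 to 1 called). Of the other genes named by rule, 6 calls were lost in at least 1 alternative, with reported values of -0.15 for PDE12 with TNFα in KO cells, 2.04 for ZBP1, -0.15 for IFNGR1 and -0.15 for IFNGR2 in KO against WT with DMSO, and -0.21 for CGAS and -0.26 for IFNAR2 in KO against WT with TNFα. Depth limits OAS2 most, at 47 counts in its lowest library, and the interferon genes.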
